A study of Homo sapiens with 2 samples.

Results

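TPSG1, LYNX1-SLURP2, PCSK1N, CALY, CENPV, SUGT1 and LHX3 gave higher array signals in HCT116 cells overexpressing HOXA5 short RNA than in mock-transfected cells, at spots whose surroundings on the array hardly differed between the arrays. The 7 genes are part of 11992 named genes that could be compared and of 21609 with a probe. They were chosen by this difference, from genes whose neighboring spots barely differed, so the differences below describe the genes and were not tested. HCT116 cells are a long-established line from a human colon carcinoma. The mock cells (genotype label control) carried an empty pEB vector, and the HOXA5 short cells (overexpression of HOXA5 short RNA) carried the same vector with that transcript, a non-coding RNA of the HOXA5 locus that skips the first exon. Both were stable transfectants selected with blasticidin for 2 weeks. The HOXA5 short vector is named in the protocol text of both samples, and the groups were taken from the titles and genotype labels. Whether each line was a pool or a clone is not given in the sources used here.

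Gene expression was measured on 1 array per group. With 1 array per group there is no replicate error between cultures, no test and no p-value, and each value stands for these 2 arrays alone. The error given after a signal is the error that the scanner software reports for that spot. In RNA from a whole culture, more cells expressing a gene and more RNA per cell cannot be told apart. Both arrays were on the same slide and in the same scan. The 75th percentile of the signals was 35.6 in mock cells and 44.0 in HOXA5 short cells. Each array was scaled to it, so a log2 difference below is smaller by 0.30 than the log2 ratio of the signals. A probe was compared when the scanner software called it well above background on both arrays, and 17938 probes passed. The HOXA5 probe, which checks the labels, read 39.4 ± 4.32 in mock cells and 346 ± 34.6 in HOXA5 short cells, 2.83 apart on the log2 scale. It may read the introduced RNA, which keeps the last exon of HOXA5, so the value does not show a change of the HOXA5 gene itself. By qPCR, the paper reports no change of coding HOXA5 mRNA in such transfectants. Epithelial markers were detected, with KRT19 (keratin 19) at 30237 and 36346, EPCAM (epithelial cell adhesion molecule) at 3492 and 4510 and CDH1 (E-cadherin) at 278 and 332 on the mock and HOXA5 short arrays. Of 4 intestinal markers, CDX2 (a homeobox factor of intestinal epithelium) passed at 244 and 281, while VIL1, CDH17 and GPA33 did not pass. Of 4 fibroblast and leukocyte markers, COL1A1 (a collagen chain) passed at 16.7 and 22.6, a log2 difference of 0.13. The collagen genes COL1A2 and COL3A1 and PTPRC (the leukocyte antigen CD45) did not pass.

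The 7 genes belong to different families. TPSG1 encodes a tryptase, a serine protease of mast cell granules that remains anchored in the membrane. LYNX1-SLURP2 is a read-through transcript of neighboring Ly6/uPAR genes, whose small proteins bind nicotinic acetylcholine receptors and tune their response. PCSK1N encodes proSAAS, an inhibitor of the prohormone convertase PCSK1, which cuts precursors of peptide hormones in neuroendocrine cells. CALY encodes calcyon, a vesicle membrane protein of neurons that takes part in clathrin-mediated endocytosis. CENPV encodes a centromere protein needed for chromosome alignment and cytokinesis. SUGT1 encodes a cochaperone of HSP90 that also serves kinetochore assembly and SCF ubiquitin ligases. LHX3 encodes a LIM homeodomain transcription factor of the developing pituitary and of motor neurons.

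Promoter sequences of 6 of the 7 genes were found in RefSeq (GRCh38.p14), as windows from 250 bases before to 50 bases after the transcription start, and LYNX1-SLURP2 had no entry. The 250 bases before the start are printed for 4 genes that span the range of CpG content, from TPSG1 with the fewest CpG dinucleotides to CENPV with the most. They are written 5′ to 3′ on the strand of the gene, with each CpG in capitals. TPSG1 lies at chr16:1225269-1225518 on the minus strand, PCSK1N at chrX:48835611-48835860 on the minus strand, SUGT1 at chr13:52652586-52652835 on the plus strand and CENPV at chr17:16353470-16353719 on the minus strand.
TPSG1: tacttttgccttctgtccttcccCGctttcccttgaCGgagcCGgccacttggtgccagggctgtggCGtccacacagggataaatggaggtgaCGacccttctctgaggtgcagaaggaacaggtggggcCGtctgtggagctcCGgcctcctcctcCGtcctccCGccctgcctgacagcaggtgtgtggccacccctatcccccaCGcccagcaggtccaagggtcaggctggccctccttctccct
PCSK1N: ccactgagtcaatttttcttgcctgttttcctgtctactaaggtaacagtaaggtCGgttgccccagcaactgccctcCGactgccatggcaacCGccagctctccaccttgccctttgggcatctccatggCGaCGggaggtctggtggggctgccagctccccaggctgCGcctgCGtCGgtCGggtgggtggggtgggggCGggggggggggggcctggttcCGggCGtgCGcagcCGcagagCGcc
SUGT1: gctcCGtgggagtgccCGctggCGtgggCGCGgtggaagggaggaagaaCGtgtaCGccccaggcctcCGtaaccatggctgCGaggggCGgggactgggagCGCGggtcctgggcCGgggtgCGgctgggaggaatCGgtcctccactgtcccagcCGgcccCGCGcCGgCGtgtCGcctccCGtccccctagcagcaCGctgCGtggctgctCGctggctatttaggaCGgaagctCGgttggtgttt
CENPV: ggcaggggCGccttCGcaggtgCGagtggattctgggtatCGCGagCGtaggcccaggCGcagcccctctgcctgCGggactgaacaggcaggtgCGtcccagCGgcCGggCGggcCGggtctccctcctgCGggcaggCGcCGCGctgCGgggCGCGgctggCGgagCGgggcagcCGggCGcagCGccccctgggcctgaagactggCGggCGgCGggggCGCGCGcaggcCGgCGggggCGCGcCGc
The 300-base windows had 10 CpG dinucleotides for TPSG1, 21 for PCSK1N, 28 for CALY, 29 for SUGT1 and 44 for CENPV. LHX3 had 3 annotated start sites, with 32, 40 and 37. Over 9472 promoters of the compared genes the median was 26, so TPSG1 and PCSK1N lay below it and the other 4 genes above it. TPSG1 had more CpG dinucleotides than 11.4% of these promoters and CENPV more than 92.8%. The GC content was 65.0% for TPSG1, against a median of 65.3%, and 80.0% for CENPV. The homeodomain core TAAT (ATTA on the other strand), the TATA box TATAAA and the E-box CACGTG were searched on both strands. None of these letters occurred in any of the 8 member windows (0 of 8), which come from 6 genes, with 3 from LHX3. In all 35116 promoters of the same length, TAAT was present in 50.2%, TATAAA in 11.5% and CACGTG in 7.26%. In the promoters of the compared genes the shares were 34.8%, 5.94% and 10.5%.

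The protease gene had the largest difference of the 7. TPSG1 (NM_012467) was represented by 1 probe, which read 668 ± 66.8 in mock cells and 3293 ± 329 in HOXA5 short cells. The HOXA5 short signal was thus 4.93 times the mock signal as read, and 3.99-fold higher after scaling, a log2 difference of 2.00 with a scanner error of 0.20. TPSG1 was the brightest of the 7 genes on both arrays, and was brighter than 83.6% of the passing probes on the mock array and than 94.1% on the other. Before any further correction, the median pixel of the spot exceeded the local background by 715 in mock cells and by 3410 in HOXA5 short cells, while that background was 22 on both arrays.

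The read-through transcript was dim. LYNX1-SLURP2 (NM_023946) had 3 probes, and 1 of them passed. Its signal was 20.6 ± 2.58 in mock cells and 84.3 ± 8.60 in HOXA5 short cells, a log2 difference of 1.73 (3.31-fold). The other probes carry the same accession and did not pass on the mock or the HOXA5 short array. Their signals were 3.61 ± 1.61 and 3.36 ± 1.75 for the first of them, and 2.51 ± 1.92 and 4.96 ± 2.13 for the other, in mock and HOXA5 short cells. The difference therefore rested on 1 of 3 probes, and signals this low on the other 2 carry no direction. LYNX1 itself (NM_177457), the partner gene that encodes a toxin-like regulator of nicotinic receptors, gave 38.7 ± 4.17 and 39.9 ± 4.34, a log2 difference of -0.26. SLURP1, a secreted relative, gave 4.34 and 1.97 and was not well above background on both arrays.

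The genes known from neuroendocrine cells and neurons, PCSK1N and CALY, were of medium and high brightness. The single PCSK1N probe (NM_013271) gave 153 ± 15.4 in mock cells and 568 ± 56.9 in HOXA5 short cells, a log2 difference of 1.59 (3.01-fold). The detected CALY probe (NM_015722) gave 624 ± 62.5 and 2236 ± 224, a log2 difference of 1.54 (2.90-fold). A second CALY probe for the same accession was not well above background, at 1.99 ± 1.65 and 1.78 ± 1.79. In TPSG1, PCSK1N and CALY the mock signal was above 100, and in the other 4 genes it was below.

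CENPV and SUGT1, which both serve chromosome segregation, had, with LYNX1-SLURP2, the lowest signals of the 7 on both arrays. The single CENPV probe (NM_181716) gave 16.6 ± 2.44 in mock cells and 55.6 ± 5.90 in HOXA5 short cells, a log2 difference of 1.44 with a scanner error of 0.26, the largest error of the 7. For this spot the median pixel exceeded the local background by 30.5 and 62.0, a ratio of 2.03 before scaling, against 3.35 for the processed signals. The size of the CENPV difference thus depended on the background correction more than that of TPSG1, where the ratios were 4.77 and 4.93. SUGT1 (NM_006704) gave 27.6 ± 3.28 and 89.2 ± 9.13, a log2 difference of 1.39 (2.62-fold). Its pseudogene transcript SUGT1P1 (NR_003667), which is similar in sequence, gave 40.9 ± 4.40 and 101.0 ± 10.3, 2.00-fold higher after scaling. Because the probes may share targets, the SUGT1 and SUGT1P1 values are uncertain as separate measurements. A further pseudogene, SUGT1P3, gave 3.34 and 1.85 and did not pass.

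LHX3 had the smallest difference of the 7. The detected probe (NM_014564) gave 82.4 ± 8.39 in mock cells and 250.2 ± 25.1 in HOXA5 short cells, a log2 difference of 1.30 (2.46-fold). A second probe for the accession gave 1.70 ± 1.70 and 1.84 ± 1.85 and was not well above background. Of the 7 genes, 4 had 1 probe and 3 had several, and in these 3 genes each of the remaining 4 probes stayed at background. No member was thus measured by a second detected probe.

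**Figure D1:**
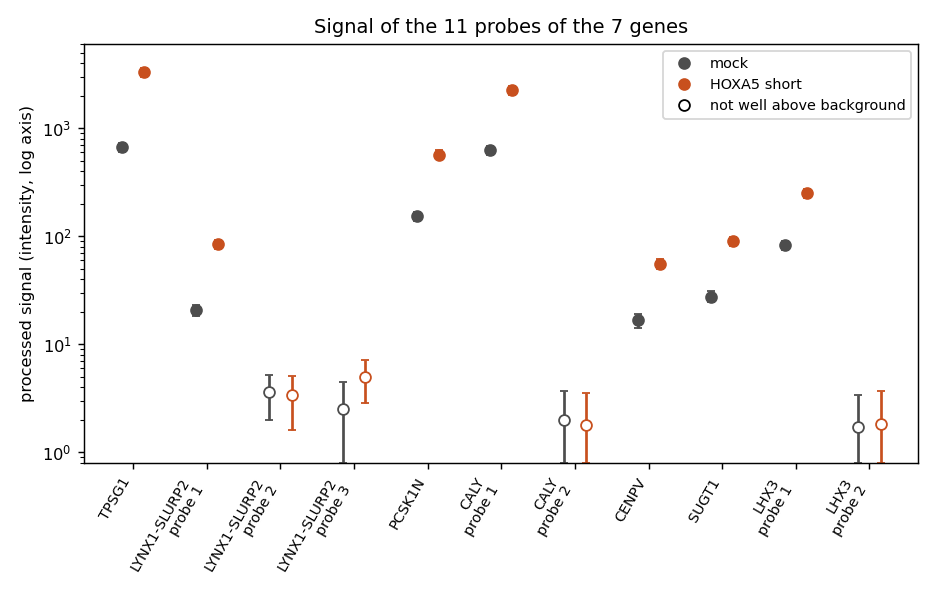
Processed signal (log axis) of the 11 probes of the 7 genes on the mock and HOXA5 short arrays, with bars for the error given by the scanner software, cut at the axis where they reach below it. The 7 filled pairs differ by 3.04 to 4.93 times before scaling, and the 4 open pairs lie at signals from 1.70 to 4.96, not well above background.

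The differences were set against the spread of the measurement. Among probes with copies on the array, single spots had a log2 difference with an SD of 0.23 at signals of 200 or more, 0.27 from 50 to 200 and 0.34 from 15 to 50. It holds no spread between cultures. The TPSG1 difference was 8.59 times the SD at its brightness, that of PCSK1N 6.83 times and that of CALY 6.60 times. The ratio was 5.02 for LYNX1-SLURP2, 4.82 for LHX3, 4.18 for CENPV and 4.04 for SUGT1. The 7 genes were chosen for large differences, so high ratios follow from the choice and do not test it. Brightness here was the geometric mean of the signals on both arrays, and SUGT1, at 49.6, lay just under the limit of 50. Between neighbors in the order of the 7 genes, no gap exceeded the single-spot SD at the brightness of the dimmer gene, so neighboring positions are not resolved. The whole range from 1.30 to 2.00 spanned 1.62-fold, while the mock signals spanned 40.2-fold. With normexp background correction, whose offset shrinks low values, the 4 dimmer genes were under 2-fold, with log2 differences of 0.35 for CENPV, 0.67 for SUGT1, 0.76 for LYNX1-SLURP2 and 0.99 for LHX3. For CENPV, median pixels less local background, without that offset, had a ratio of 2.03 before scaling, so under 2-fold after it. These ratios before scaling were 3.06 for LYNX1-SLURP2, 2.79 for SUGT1 and 2.77 for LHX3.

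Probes of like brightness showed how common such values were. Within 0.5 log2 units of the mean signal of TPSG1, 900 probes lay in even areas and 4 of them (0.444%) were at least 2-fold higher, with TPSG1 the highest. Near PCSK1N the share was 0.263% of 1902 probes, near CALY 0.286% of 1050 and near LHX3 0.338% of 2368. Near the dimmest genes more probes reached 2-fold, though not in order of brightness, and their windows overlap. The share was 0.994% of 2515 probes near LYNX1-SLURP2, 0.988% of 2530 near SUGT1 and 0.712% of 2528 near CENPV. Counting the gene itself, 9 probes near CENPV and 8 near SUGT1 were as high or higher, against 2 near CALY and 2 near LYNX1-SLURP2. The members were chosen for large differences, so their high positions among these probes follow from the choice. Some windows also hold other members, as TPSG1 in that of CALY and LYNX1-SLURP2 in that of CENPV.

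**Figure D2:**
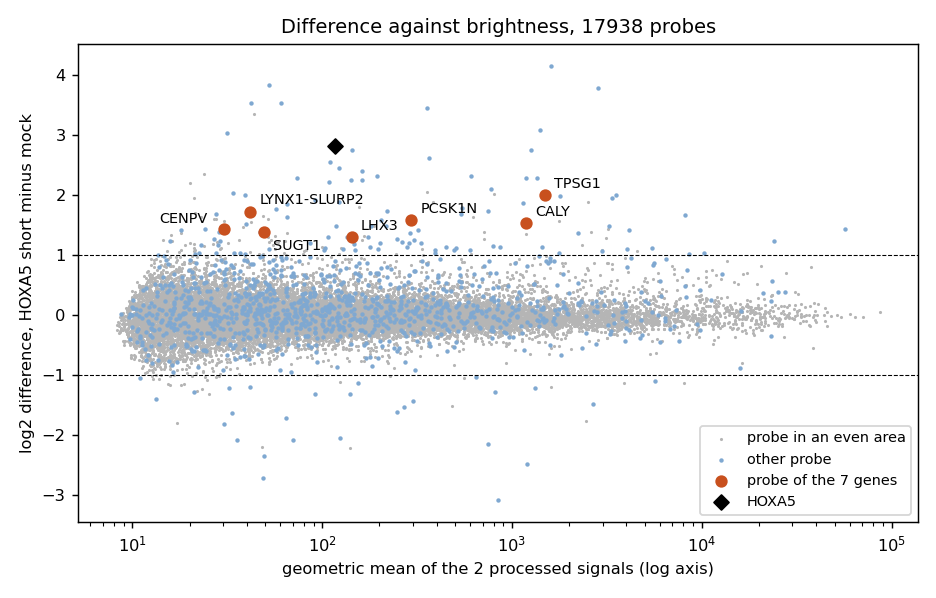
Log2 difference (HOXA5 short minus mock) against the geometric mean of the signals (log axis) for the 17938 passing probes, with dashed lines at 2-fold. The 7 genes lie between 1.30 and 2.00 and spread over the range of brightness from CENPV to TPSG1, and HOXA5 lies above them at 2.83.

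An area was called even when at least 10 well-measured spots lay within 4 rows and columns and under 5% of them differed 2-fold. The 7 spots had 181 such neighbors together, and 2 of them (1.10%) differed 2-fold. TPSG1 had 1 changed spot among 22, LYNX1-SLURP2 1 among 32, and the other 5 genes had 0 among 22 to 30. The medians of the neighbors ran from -0.07 around CALY to 0.12 around TPSG1. The rule used these values. The 7 spots were scattered over the grid of 384 rows and 164 columns, between rows 7 and 372, and the closest pair lay 36 rows or columns apart. The local background was 21 to 24 at all 7 spots on both arrays.

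**Figure D3:**
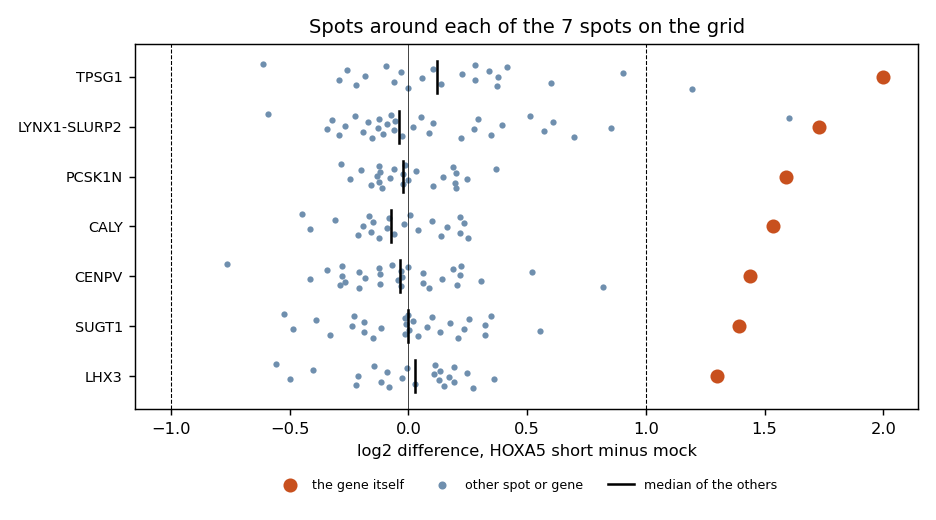
Log2 difference (HOXA5 short minus mock) of each of the 7 spots and of the well-measured spots within 4 rows and columns of it, with the median of the neighbors as a bar and dashed lines at 2-fold. The members lie at 1.30 or above, 2 of the 181 neighbors lie beyond 2-fold, and the neighbor medians stay between -0.07 and 0.12.

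Across all compared genes, 77 of 11992 (0.642%) were higher by 2-fold or more in HOXA5 short cells and 31 (0.259%) were lower by as much. In even areas, 29 of 11396 genes (0.254%) were at least 2-fold higher, and the 7 genes belong to these by choice. By size of the difference in even areas, the HOXA5 probe, which may read the introduced RNA, was at the top (2.83). TPSG1 and LYNX1-SLURP2 followed at positions 2 and 3. H2AC8, a histone gene, followed at 1.64, from 11.7 to 45.1, ahead of PCSK1N at position 5. IL15RA, a cytokine receptor chain, stood at 1.58 with 1 of its 2 passing probes, before CALY and CENPV at positions 7 and 8. EIF1AY, a translation initiation factor, stood at 1.41, from 17.2 to 56.5, between CENPV and SUGT1. MAP3K9, a kinase, stood at 1.34 with 1 of its 2 passing probes, just before LHX3 at position 12. Below LHX3 came PHF10, a chromatin remodeling subunit, at 1.25 (21.3 and 62.7) and TMEM19, a membrane protein, at 1.25 (31.3 and 91.8). The step from LHX3 to PHF10 did not exceed the single-spot SD, so no gap separates the 7 genes from those that follow. Among the 29 genes, 9 had several probes, and in 0 of the 9 did all probes pass and reach 2-fold.

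The genes closest to each member in the pair of scaled log2 levels were found by Euclidean distance over the 2 arrays. CENPV and EIF1AY lay 0.06 apart. SUGT1 was closest to TMEM19 (0.19), and LYNX1-SLURP2 to SUGT1 (0.43). PCSK1N was closest to ELFN1, a synaptic membrane protein, at 0.16, and ELFN1 went from 163 to 518. CALY was closest to HCN2, a pacemaker channel, at 0.45, and HCN2 went from 708 to 1675, a log2 difference of 0.94. TPSG1 was closest to WDR18 (0.28), and LHX3 to CNOT7 (0.14), a subunit of the CCR4-NOT deadenylase. The spots of WDR18 and ELFN1 were in uneven surroundings, with 3 changed spots among 27 and 3 among 25. Of the 2 CNOT7 probes, 1 had 13 changed spots among 25.

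The nearest compared genes on the chromosomes of the 7 stayed below 2-fold. The 3 nearest compared genes on each side of each member were taken from the RefSeq gene order, 42 in all. Genes that were not compared often lay in between, with a median of 4 RefSeq genes and over 10 for 9 of the 42, so most of these genes are not directly adjacent. None differed by 2-fold or more (0 of 42), against the shares of 0.642% and 0.259% of all genes. Their median log2 difference was -0.05, against -0.02 for all genes, and 15 of them lay above 0. On chromosome 16, the chromosome of TPSG1, the calcium channel gene CACNA1H (3 genes in between) gave 0.21 and CEROX1 (17 in between) 0.11. TSR3, a ribosomal RNA modifying enzyme with 15 genes between it and TPSG1, had the highest value of the 42 genes at 0.36. Near LYNX1-SLURP2 on chromosome 8, the Ly6 genes PSCA, LY6K, LY6D and LY6E gave -0.04, -0.18, -0.03 and 0.08. Near PCSK1N on chromosome X, the deacetylase HDAC6 gave 0.06, the histone methyltransferase SUV39H1 -0.44 and PQBP1 0.02. Around CALY on chromosome 10, ECHS1 of fatty acid oxidation gave -0.22, and the protease gene ADAM8 gave -0.82, the lowest of the 42. Around CENPV on chromosome 17, the ubiquitin gene UBB gave 0.31 and the corepressor gene NCOR1 -0.07. For SUGT1 on chromosome 13, the values ran from MZT1 at -0.58, with 181 genes in between, to HNRNPA1L2 at 0.03, with 1 in between. Around LHX3 on chromosome 9 they ran from QSOX2 at -0.18 to UBAC1 at 0.08.

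**Figure D4:**
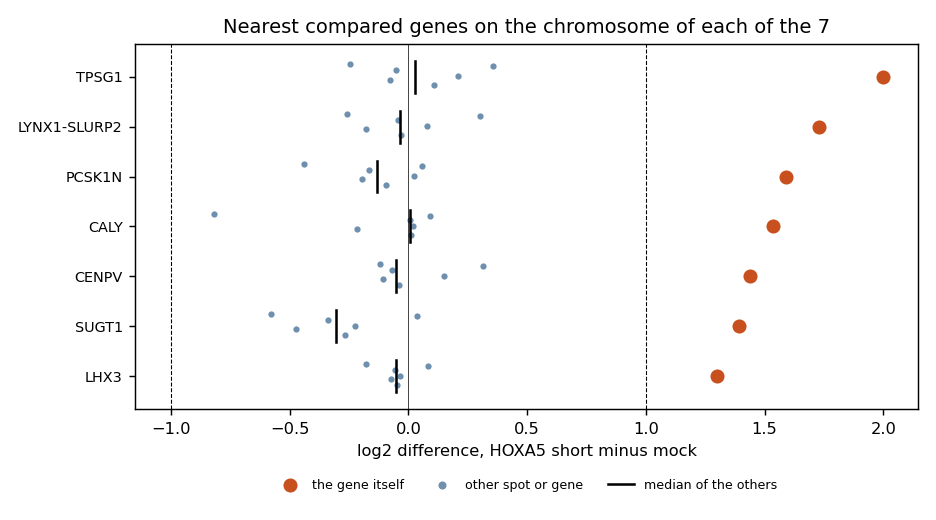
Log2 difference (HOXA5 short minus mock) of each of the 7 genes and of the 3 nearest compared genes on each side along its chromosome, with the median of the neighbors as a bar and dashed lines at 2-fold. All 42 neighbors lie between -0.82 and 0.36, below the 7 genes.

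Families and pathways of the 7 genes were then examined. By the mean of their passing probes, none of the other compared genes reached 2-fold in either direction. Changes of that size were rare among all compared genes too, with 0.642% up and 0.259% down. Finding none in lists this short therefore does not set the families apart. Of 9 other serine proteases of the tryptase family, 7 had a probe and 2 passed. The channel-activating protease PRSS8 gave 1677 and 1930 (log2 difference -0.10), and PRSS22 gave 45.0 and 74.3 (0.42). TPSAB1, the alpha and beta tryptase of mast cells, gave 1.74 and 1.88 on its single probe, in mock and HOXA5 short cells, and was not well above background. All 8 mast cell markers had probes and 0 of them passed, among them the receptor gene KIT. TPSG1 was thus detected on both arrays while none of these 8 markers passed.

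Of 29 Ly6/uPAR genes, 9 passed, with a median log2 difference of -0.03 and 4 above 0. They ran from LYNX1 at -0.26 to PLAUR, the urokinase receptor, at 0.45 (265 and 446). LY6E was the brightest at 1065 and 1387. Of 16 nicotinic receptor subunits, 4 passed. CHRNA5 gave 112 and 141 (0.03), CHRNA7 57.1 and 72.5 (0.04), CHRNA10 37.1 and 37.9 (-0.27) and CHRNB1, the dimmest of the 4 in mock cells, had a log2 difference of 0.46. The median of the 4 was 0.03.

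Of 19 genes of prohormone processing and of the granins, 11 passed, with a median of 0.04 and 6 above 0. PCSK1, the convertase that proSAAS inhibits, gave 1.97 and 2.14 and was not well above background, and PCSK2, CHGA and SCG5 did not pass either. VGF, a granin-like secreted precursor, was the brightest at 2328 and 3519 (0.29). The convertases FURIN and PCSK6 gave -0.23 and -0.51, the protease MBTPS1 gave 0.38 as the mean of its probes, and the carboxypeptidase CPE gave -0.08 (169 and 198). The 10 markers of neurons and neuroendocrine cells were not detected on both arrays (0 of 10 passed). PCSK1N and CALY were thus measured in cells in which none of these markers passed. Among 16 genes of the clathrin coat, the AP-2 adaptor and the relatives and partners of calcyon, 9 passed, with a median of -0.10 and 2 above 0. The dopamine receptor DRD4 was lowest at -0.76 (24.9 and 18.2), the adaptor subunit AP2A1 highest at 0.13, and AP2S1 brightest at 20023 and 23004 (-0.10). The calcyon relatives NSG1 and NSG2 were not well above background.

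Of 28 genes of the centromere and the chromosomal passenger complex, 27 passed, with a median of -0.02 and 12 above 0. CENPK was lowest at -0.49 (14.5 and 12.7) and CENPS highest at 0.71 (136 and 274), and the surroundings of the CENPS spot were not even. The centromeric histone CENPA gave 0.23 and the kinase AURKB 0.26. The brightest, CENPX, gave 7485 and 9430 (0.03), while CENPV, at 1.44, lay above all 27. Of 26 genes of HSP90, its cochaperones and SCF ligases, 25 passed, with a median of 0.06 and 15 above 0. FKBP8 was lowest at -0.17 and CUL1, the SCF scaffold, highest at 0.87 (56.0 and 127). The SCF subunit RBX1 was the brightest of the list in mock cells by gene mean, at 2467 and 2873 (-0.08). Single probes of genes with several probes were brighter, such as HSP90B1 at 12845.5 and HSP90AA1 at 8889.8 in mock cells. The cochaperone PTGES3 gave 0.72. The HSP90 genes themselves had probes that disagreed. The HSP90AB1 probes gave 0.03 (3816 and 4797) and 1.39 (397 and 1282), and the HSP90AA1 probes gave -0.10, 0.90 and 1.69, the last in uneven surroundings. The cochaperone CHORDC1 gave 0.00, 0.09 and -0.41 on its 3 probes.

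Of 17 LIM homeobox genes and their cofactors, 8 passed, with a median of -0.01 and 4 above 0. LHX2 gave 164 and 228 (0.17), LHX1 was highest at 0.26 (22.6 and 33.4) and the cofactor LDB1 lowest at -0.36 (39.4 and 38.0). LHX4, the closest relative of LHX3, was not well above background. Of 12 pituitary genes, 3 passed. PITX1, a homeobox factor of pituitary and hindlimb, gave -0.06 and -0.35 on its probes, and LHB, a gonadotropin chain, gave 0.07. The pituitary factor POU1F1 and the hormone genes CGA, PRL and GH1 were not well above background, so LHX3 passed on both arrays while these genes did not.

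**Figure D5:**
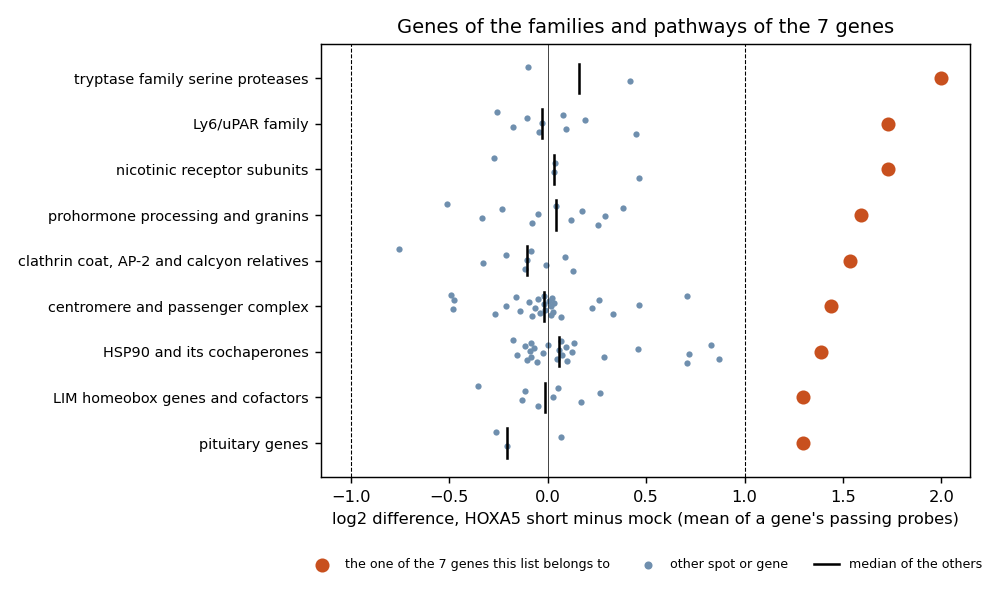
Log2 difference (HOXA5 short minus mock) of the compared genes of 9 families and pathways and of the member each belongs to, with the median of the other genes as a bar and dashed lines at 2-fold. The other genes lie between -0.76 and 0.87, and each of the 7 members, chosen for its large difference, lies at 1.30 or above.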

How the data were processed

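Total RNA of 2 HCT116 transfectants was labeled with Cy3 and measured on SurePrint G3 human arrays (Agilent). Per the file headers, the deposited scanner files were made with Feature Extraction 11.5.1.1 and give, for each of 62976 spots, an intensity on a linear scale after background correction (the processed signal), its error and its flags. The authors also deposited a log2 table centered per probe, which was used as an alternative. The methods state a filter on low and flagged values for it, and its scaling is not given in the sources used here.

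Control and outlier spots were left out. Log2 intensities were averaged over the copies of a probe and scaled to the 75th percentile of each array. A probe passed when well above background on both arrays, and a gene was the mean of its passing probes. Of 50595 probes, 29997 (59.3%) were named by matching accessions to RefSeq, as were 85.3% of the passing probes. The scanner files were annotated on hg19, and RefSeq served for names, gene order and promoters only. Python 3.11.15, pandas 2.3.3, R 4.3.3 and limma 3.58.1 were used, and the calculation was tested on simulated data. The limit for an even area was set with its values known. Genes named by rule are the members, HOXA5, the highest, lowest and brightest gene of each list, the nearest compared genes on the chromosome, the most alike genes and those ranked next to the members. Other list genes, such as PCSK1, TPSAB1, KIT, HSP90AA1 and HSP90AB1, were chosen after values were seen. The values of a few list and neighboring genes are not reported here. The members and all lists were chosen with earlier results of these data known. Alternatives were other scalings, background correction, filters, thresholds and grid windows. The 2 arrays limit the precision.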

Additional observations from a re-analysis of the deposited data

How the results depend on the processing

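No member changed sign under any of the 10 alternatives run for it, and all 7 stayed at least 2-fold higher in 8 of the 10. Several of these 8 could hardly differ. The scalings to the median, to detected probes and to the spike-ins shift all genes alike. The brightest probe was the same one, since no member had a second passing probe. Subtracting the local median moved little, as members were chosen for even surroundings. The deposited log2 table comes from the same 2 arrays and gave nearly the same member values, such as 2.00 for TPSG1 and 1.30 for LHX3. The count is therefore not a measure of robustness. With normexp background correction 3 of 7 stayed at least 2-fold higher, and the median of the 7 genes was 0.99 against 1.54. CENPV dropped to 0.35, SUGT1 to 0.67, LYNX1-SLURP2 to 0.76 and LHX3 to 0.99, while CALY was at 1.59, PCSK1N at 1.46 and TPSG1 at 2.04. The offset of 50 in this correction shrinks low values by construction, but CENPV was also under 2-fold in scaled median pixels less local background, without it. Without a filter on low values 4 of 7 stayed at least 2-fold higher. Undetected probes then enter the mean, and CALY fell to 0.53, LHX3 to 0.56 and LYNX1-SLURP2 to 0.67. Scaling to the spike-ins moved the median of all genes from -0.02 to 0.43, that of the 7 genes to 1.99 and that of the family and pathway genes from -0.01 to 0.45, a shift common to all genes.

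Of 11992 genes, 77 were at least 2-fold higher and 31 lower, so 71.3% of the changed genes were higher. Over the same genes the numbers were 108 and 20 (84.4%) with scaling to the median and 389 and 8 (98.0%) with the spike-ins. They were 37 and 8 (82.2%) with normexp, and 60 and 19 with the local median subtracted. The deposited log2 table gave 215 and 107 of 12574 genes, and leaving out the filter gave 446 and 563 of 21609 (44.2%). Both cover more genes, so their counts are not directly comparable with 77 and 31. With the main scaling the numbers were 333 and 192 at 1.5-fold, 21 and 6 at 3-fold, and 35 and 14 for signals above the median. Of the neighbors of the 7 spots, 2 of 181 differed 2-fold, 1 of 45 within 2 rows and columns, 4 of 705 within 8, and 11 of 181 differed 1.5-fold. The neighbors that differed 1.5-fold were unevenly shared, with 5 of 32 around LYNX1-SLURP2, 4 of 22 around TPSG1 and 2 of 30 around CENPV. The other members had 0. The surroundings of the 2 members with the largest differences were thus less even at this limit. Calling an area even at under 10% changed neighbors, chosen after seeing the data, gave 48 higher genes in place of 29. Where the construction does not show it, the cause was not tested. No paired analysis was possible because each group has 1 array. Signal over background limits the 4 genes with mock signals under 100, which fell under 2-fold with normexp.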
